A study of Homo sapiens with 32 samples.

Results

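The data compared here are the m6A peaks of METTL3 knockout and control PANC-1 cells, taken as every line of the 2 deposited peak lists on chromosomes 1 to 22. They are 275884 of the 424904 peaks in the 3 lists of the series used here, and comprise 152405 control and 123479 METTL3 knockout peaks. PANC-1 is an established cell line of human pancreatic ductal adenocarcinoma. All groups share this line and the same assay: fragmented total RNA was captured with an antibody against N6-methyladenosine (m6A) and sequenced beside uncaptured input. Behind the 2 lists stand 8 of the 32 samples, namely 2 antibody samples and 2 inputs of genotype Control and the same of genotype KO METTL3. The labels do not say whether the knockout was a single clone or a pool, nor whether a group's libraries stem from different cultures, so p-values measure only the spread between these libraries, which may be technical. The series title concerns m6A on RNA made from super enhancers, and the METTL3 knockout list shows which peaks were still listed in cells labelled as lacking the main m6A writer.

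m6A is the methyl mark most often found inside eukaryotic messenger RNA. METTL3 is the catalytic subunit of the writer complex. It works as a heterodimer with METTL14, which helps to bind the RNA, and with WTAP and further adaptors that place the complex in nuclear speckles. The complex methylates adenosines within a short consensus known as DRACH, often near stop codons and in long internal exons. Other enzymes write m6A on other RNAs, METTL16 on U6 small nuclear RNA among them, and PCIF1 makes the related cap mark m6Am, which antibodies against m6A can also bind. An m6A antibody also captures some unmodified RNA.

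Peak names in the lists show 2 libraries per group, here control 1 and 2 and METTL3 knockout 3 and 5, each with its own peak calls. Replicates in the labels are numbered otherwise, and the names of the knockout libraries hold the letters si, where the labels say knockout. METTL3 itself could not be checked, since the lists hold no transcript levels, and neither could markers of the cell type. The names of control peaks record another folder than those of knockout peaks, so that any difference in handling between the lists and the genotype cannot be told apart. The libraries held 75301 and 77104 peaks in control and 61237 and 62242 in the knockout. Read depth is unknown. At a like fold enrichment (from 4 to under 5) the median −log10 q was 6.23 and 7.45 in the control libraries and 4.95 and 4.74 in the knockout libraries. The part of this difference in the results below was not tested.

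Peaks of the 4 libraries that overlapped by at least 1 bp were joined into 137252 sites. Peaks of both groups stood at 32546 sites (23.7%), control peaks alone at 60743 (44.3%) and knockout peaks alone at 43963 (32.0%). A total of 21483 sites (15.7%) had a peak in all 4 libraries. Sites present in both control libraries and neither knockout library formed the largest of the 15 combinations, with 25216 sites, and 14457 sites had the opposite pattern.

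**Figure D1:**
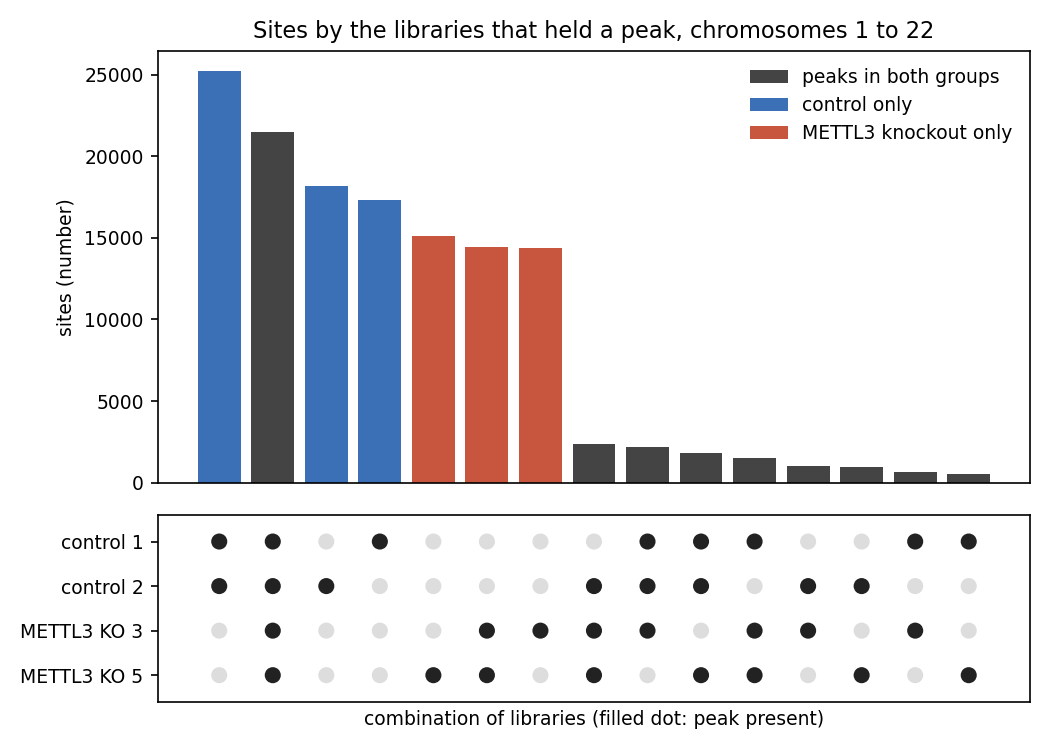
Number of sites (vertical axis) for each combination of the 4 libraries, which the filled dots below each bar name. The bar of control 1 and 2 without either knockout library (25216) is the tallest, followed by the bar of all 4 libraries (21483), while combinations with 1 library missing are small.

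Sites seen in both control libraries were either kept in both knockout libraries or absent from both. Of 50668 such sites, 21483 (42.4%, exact 95% binomial interval 42.0% to 42.8%) had a peak in both knockout libraries, 25216 (49.8%, 49.3% to 50.2%) had none, and 3969 (7.83%, 7.60% to 8.07%) had a peak in 1. These intervals cover counting error only, and neighbouring sites are not independent. From the other side, 53.9% of the 39831 sites of both knockout libraries were in both control libraries, 36.3% in neither and 9.77% in 1. Sites found in 1 control library alone were kept far less: 83.4% of 42621 had no knockout peak.

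Measured library by library, 38.2% and 37.3% of the control 1 peaks overlapped a peak of knockout 3 and of knockout 5. For control 2 these shares were 38.4% and 37.8%. The same measure between the 2 control libraries gave 72.5% and 69.8%, which is the background of peaks missed without a change of genotype. Of the knockout 3 peaks, 45.4% and 47.4% were found in control 1 and 2, and of the knockout 5 peaks 44.4% and 46.7%, against 69.2% and 69.5% between the knockout libraries. All 8 shares between groups lay below all 4 shares within groups. An exact permutation of 2 against 2 libraries has 3 splits and cannot give a two-sided p under 0.333, which is the value observed here and for the other comparisons of this kind below.

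The sites that stayed were most often the wide and the most strongly enriched ones. In the decile of control peaks with the highest fold enrichment, 80.9% (mean of 4 library pairs, 78.2% to 83.6%) had a knockout peak, beside 99.2% found in the other control library. In the 9th decile the shares were 59.2% and 93.8%, and in the 5th 25% and 58.3%. The lowest decile broke the order, with 34.4% kept against 21.4% in the 3rd decile, and the background moved likewise, at 66.6% and 52.6%. Knockout peaks showed the same form: 77.0% of the highest decile had a control peak, 22.1% of the 3rd, 40.1% of the 2nd and 46.4% of the lowest.

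**Figure D2:**
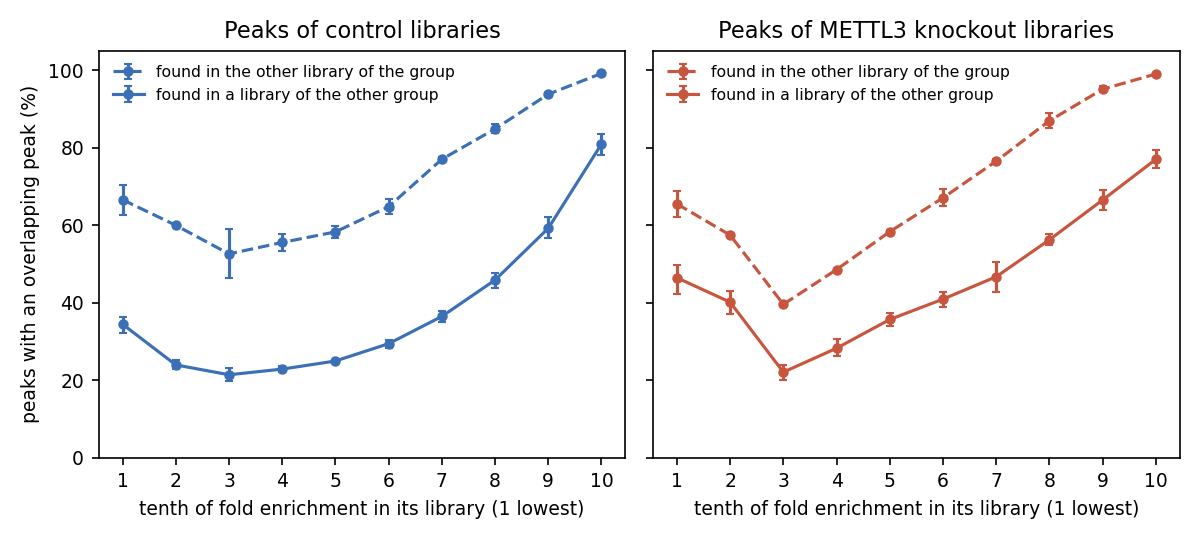
Share of peaks with an overlapping peak (vertical axis, %) by decile of fold enrichment within a library (horizontal axis), for control peaks (left) and METTL3 knockout peaks (right). Points are means over library pairs and bars run from the lowest to the highest pair; the solid lines (other group) lie under the dashed lines (same group) in every decile, and both are lowest in the 3rd decile.

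The share kept rose over every quintile of width. Of the narrowest quintile of control peaks (200 to 225 bp) 14.4% had a knockout peak, rising through 20.7%, 27.7% and 49.7% to 77.2% in the widest quintile (over 635.5 bp). The other control library held 44.6% of the narrowest and 96.2% of the widest quintile. Width and fold were not interchangeable. Among control peaks under the 25th percentile of fold, 69.4% of those in the widest quintile (1439 and 1317 peaks in the 2 libraries) had a knockout peak, against 14.2% in the narrowest quintile (6451 and 6717 peaks). Above the 75th percentile, the narrowest quintile held only 435 peaks in each control library and 27.9% of them had a knockout peak, against 84.1% of the widest quintile. Between the control libraries, the widest and narrowest quintiles differed too, at 92.3% and 46.0% under the 25th percentile. Above the 75th these shares were 99.0% and 73.8%. Of the knockout peaks above the 75th percentile and in the narrowest quintile, 17.4% were found in control and 75.6% in the other knockout library (265 and 161 peaks).

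The same contrast held for sites. Those in all 4 libraries had a median width of 596 and 634 bp in control 1 and 2 and a median percentile of fold, ranked among all peaks of the library, of 74.7 and 77.7. Sites of both control libraries without a knockout peak had medians of 305 and 311 bp and percentiles of 49.5 and 48.0, near the middle of their libraries. Sites of both knockout libraries without a control peak were alike, at 314 and 298 bp and percentiles of 52.7 and 52.2. These percentiles are those of the strongest peak of a library at each site. By this measure neither set consisted mainly of the weakest peaks of its libraries by fold, and their −log10 q was not compared.

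Few control peaks missing from the knockout had a knockout peak close by. Where a control peak had no overlapping peak in a given knockout library, the nearest peak there was a median of 6978 to 7036 bp away over the 4 pairs, and 14.9% (mean) had one within 1000 bp. Between the control libraries the median distance was 1900 and 2778 bp, and 31.8% had a peak within 1000 bp. Knockout peaks missing from control lay a median of 5417 to 6098.5 bp from the nearest control peak, and 20% had one within 1000 bp. Between the knockout libraries the median distance was 4112 and 4469 bp, and 25.9% had a peak within 1000 bp, so the background was nearer to the value between groups than on the control side.

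Neighbouring control sites tended to share their fate at short distances. Over sites present in both control libraries, 50.2% had a peak in at least 1 knockout library. Where the next such site lay less than 1 kb away (10822 pairs), the next site was kept in 70.9% of cases after a kept site and in 20.6% after a lost one. At 1 to 10 kb the shares were 63.3% and 32.0% (19020 pairs), at 10 to 100 kb 60.7% and 48.6% (16690 pairs), and beyond 100 kb 69.3% and 68.7% (4114 pairs). The gap between kept and lost thus closed with distance, and beyond 100 kb both shares lay above that of all sites. Among the 26527 sites with a mean control percentile of fold from 25 to 75, the next site under 1 kb away was kept in 62.5% of cases after a kept site and 12.7% after a lost one, so the pattern was also present among sites of middling strength. Sites close together can lie on 1 transcript and are not independent, and transcript levels were not examined here.

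**Figure D3:**
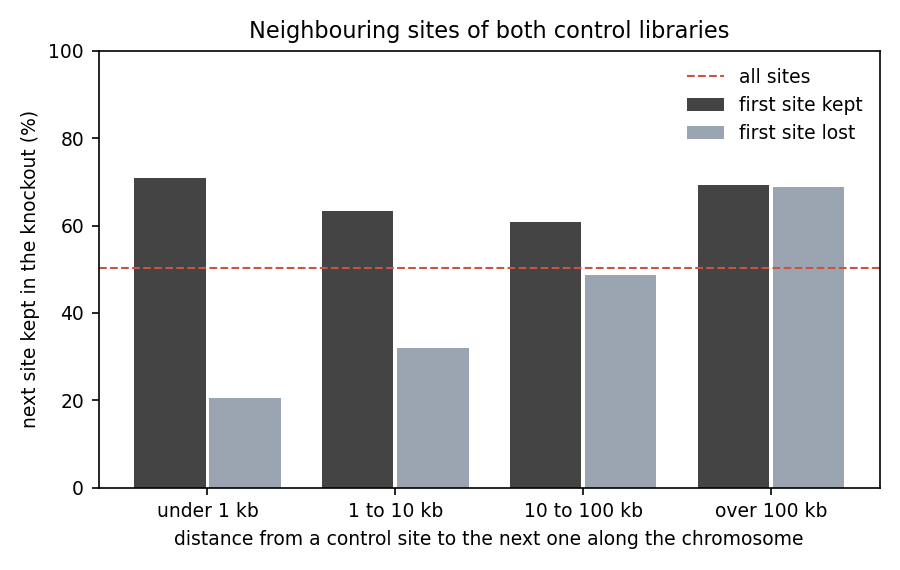
Share of control sites kept in at least 1 METTL3 knockout library (vertical axis, %), by distance from the previous control site and by whether that previous site was kept (dark bars) or lost (light bars); the dashed line marks all sites (50.2%). The 2 bars differ most under 1 kb (70.9% and 20.6%) and are nearly level beyond 100 kb (69.3% and 68.7%).

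Seen from the knockout, the tie between neighbours was looser. Of the sites in both knockout libraries 63.7% had a control peak. Under 1 kb, the next site was in control in 74.0% of cases after a site with a control peak and in 48.5% after a site without one (6747 pairs), and beyond 100 kb in 58.1% and 51.9% (5295 pairs).

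By chromosome, the share of sites of both control libraries with a knockout peak ran from 45.3% on chromosome 17 (3298 sites) and 45.7% on chromosome 15 (2092) to 59.1% on chromosome 13 (889) and 61.6% on chromosome 21 (601). The share of sites of both knockout libraries with a control peak ran from 56.7% on chromosome 4 to 69.4% on chromosome 22.

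Width, summit and rank were compared at shared sites, defined as the 15690 sites with exactly 1 peak in each of the 4 libraries. They were 73.0% of the sites in all 4 libraries. Of the remaining sites, 791 had a single peak in both knockout libraries and several in both control libraries, and 568 the reverse. Every shared site passed through detection in both groups, so the sites without a peak in 1 group play no part in what follows. With 2 libraries per group, the groups can lie apart at a site by order alone. Shares of sites with the groups apart are therefore not shares of changed sites.

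Summits lay farther apart between groups than within them. The summit is the position of the highest signal within a peak. Summits of control 1 and 2 lay a median of 11 bp apart at shared sites, and those of knockout 3 and 5 lay 13 bp apart. Between control and knockout the median distance was 81, 79, 83 and 82 bp in the 4 library pairs (exact permutation p = 0.333, the smallest possible, n = 2 against 2 libraries). Within 20 bp of each other were 61.7% of the summits of the control pair and 57.9% of those of the knockout pair, against 22.2% to 22.7% between groups. More than 200 bp apart were 6.02% and 6.49% within groups and 24.0% to 25% between them.

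**Figure D4:**
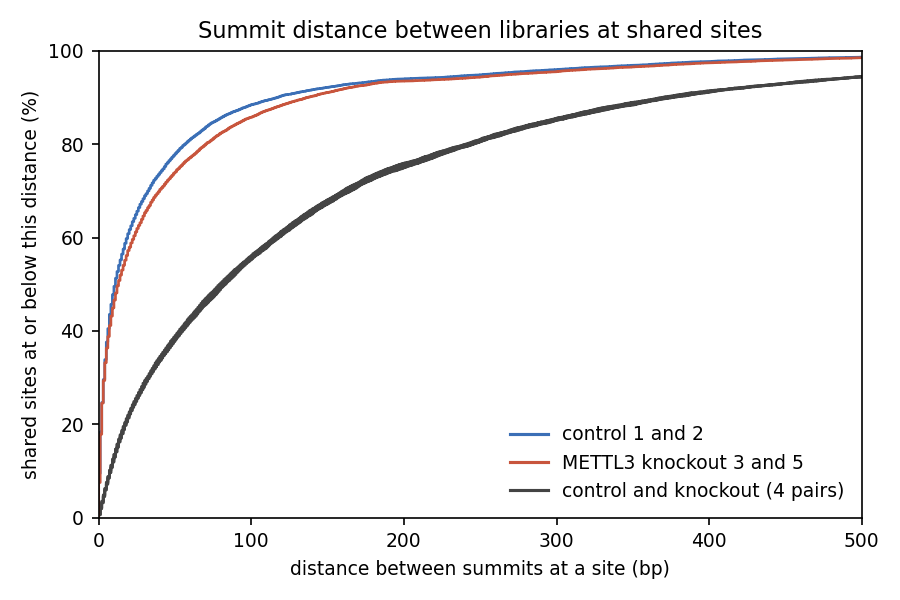
Cumulative share of the 15690 shared sites (vertical axis, %) whose summits in 2 libraries lie at or below a given distance (horizontal axis, bp). The control pair and the knockout pair rise steeply together (medians 11 and 13 bp), and the 4 pairs of a control and a knockout library lie on one another far to the right (medians 79 to 83 bp).

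The shift had no preferred direction along the chromosome. Both knockout summits lay on the higher coordinate side of both control summits at 5680 shared sites (36.2%) and on the lower side at 5653 (36%), with a median signed shift of 0 bp. The lists give no strand, so shifts along the transcript were not measured. At 14885 sites (94.9%) the mean knockout summit still lay within the span of the control peaks. At 5982 shared sites the 2 summits of each group were within 20 bp of each other. Of these, 1907 (31.9%) had group means within 20 bp, 1834 (30.7%) over 20 to 100 bp apart, 1048 (17.5%) over 100 to 200 bp and 1193 (19.9%) over 200 bp apart.

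Wider sites had longer shifts in proportion to their width. In the narrowest quintile of shared sites the median shift of the group mean was 34.0 bp and in the widest quintile 174.5 bp, while the distance within the control pair went from 12 to 8 bp and within the knockout pair from 13 to 9 bp. As a share of site width the medians were 11.7% and 14.7%. Shift and mean width had a Spearman correlation of 0.38 across the 15690 sites, which share libraries and are not independent. With strength the shift changed less, from 65.0 bp in the weakest quintile to 84.0 bp in the strongest. As a share of site width it went the other way, from a median of 16.1% to 10.3%.

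The longest shifts with agreement inside each group were between 1671 and 1992 bp, at wide sites. At chr17:76044792-76047460 (coordinates of hg19 here and below) the control summits were at 76045079 and 76045081 and the knockout summits at 76047078 and 76047066, a shift of 1992 bp. The peaks themselves had nearly the same width in the 4 libraries, at 2537, 2533, 2634 and 2649 bp in the order control 1, control 2, knockout 3, knockout 5. The site thus kept its extent while its highest point moved from one end to the other.

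The site at chr1:200376019-200379019 moved by 1827.5 bp, from 200376491 and 200376490 in control to 200378316 and 200378320 in the knockout. At chr2:96917458-96919862 the summits went from 96917659 and 96917658 to 96919329 and 96919330, a shift of 1671 bp. In the opposite direction, chr3:44700090-44702511 moved by -1803.5 bp and chr2:152320253-152322590 by -1775 bp. In each of these 5 sites the summits of 1 group agreed to within 18 bp or less, and the mean width in the knockout was 0.975 to 1.16 times that in control. The fold rank at 3 of them changed by less than 2 percentile points, and it changed by -28.8 and -28.2 points at chr1:200376019-200379019 and chr2:152320253-152322590.

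Width changed in both directions, with hardly any net change. The median widths at shared sites were 551 and 574 bp in control 1 and 2 and 549 and 531 bp in knockout 3 and 5. The median log2 ratio of knockout to control width was -0.03 over sites (exact permutation of the library medians, p = 0.333, n = 2 against 2), and without control 2, over the 18316 sites that then had 1 peak per library, it was 0.01. At the 15690 sites the pairwise medians against control 1 alone were -0.005 for knockout 3 and -0.021 for knockout 5, so the net change was close to 0 either way. The size of the change was larger than between libraries of a group: the median absolute log2 ratio was 0.32 to 0.34 in the 4 pairs between groups, 0.11 in the control pair and 0.13 in the knockout pair. Both knockout libraries were narrower than both control libraries at 5638 shared sites (35.9%) and wider at 4666 (29.7%). Part of these sites separate by order alone. At least 2-fold with the groups apart were 776 sites that narrowed (4.95% of shared sites) and 677 that widened (4.31%).

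The strongest widening was at chr12:132640088-132643062, where the peak spanned 200 and 225 bp in control and 2919 and 2966 bp in the knockout, 13.8 times the control mean. Here −log10 q was 3.01 and 2.24 in control, so that the control peaks stood close to the lowest values in the lists (1.89 to 1.91), and 40.2 and 76.5 in the knockout. At chr1:149812364-149814919 the widths were 200 and 217 bp against 2512 and 2556 bp, and the fold enrichment rank rose from percentiles 1.32 and 2.17 to 18.9 and 87.4. The remaining sites of this kind were chr17:493619-496311 (7.62 times), chr14:77843282-77845640 (7.05 times) and chr1:92855783-92857225 (6.57 times), where both control peaks were again 213 to 348 bp wide. All 5 were small control peaks inside a region that was covered broadly in both knockout libraries.

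The strongest narrowing was the mirror image. The peak at chr18:8799662-8801274 spanned 1612 and 1560 bp in control and 231 and 202 bp in the knockout, 0.137 times the control mean. At chr17:40517766-40519771 the widths were 1881 and 1361 bp in control and 205 and 263 bp in the knockout, and its fold rank dropped from percentiles 90.4 and 92.9 to 2.99 and 4.93. The sites at chr10:3179651-3181422 (0.150 times), chr10:7238932-7240808 (0.166 times) and chr2:236916542-236918394 (0.146 times) also kept a remnant of 223 to 312 bp. A site of this kind counts as kept in the METTL3 knockout although most of its control extent was no longer listed.

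Fold enrichment was compared by rank within a library, because each library was called separately. A rank of 100 is the highest fold among all its peaks. The median absolute rank difference at shared sites was 7.97 percentile points between control 1 and 2 and 9.83 between knockout 3 and 5. Between control and knockout it was 17.7, 17.5, 17.8 and 17.3 points in the 4 pairs (exact permutation p = 0.333, n = 2 against 2 libraries). With −log10 q ranked in place of fold, the mean over the 4 pairs was 10.9 points and that within groups 4.03. The Spearman correlation of fold ranks across sites was 0.80 in the control pair, 0.77 in the knockout pair and 0.46 to 0.48 between groups.

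Ranks of both knockout libraries lay below those of both control libraries at 5752 shared sites (36.7%) and above at 3848 (24.5%). Here too, part of the sites separate by order alone. Among all peaks of their library, shared sites had a median percentile of 71.2 and 75.1 in control and 64.8 and 67.5 in the knockout. The fold itself was not lower: its median at shared sites was 5.40 and 5.47 in control and 5.91 and 6.40 in the knockout. Over all peaks of a library the median fold was 4.15 and 3.92 in control and 4.64 and 4.75 in the knockout. When ranks were taken within the 15690 shared sites alone, which sets the mean change to 0, 4785 sites (30.5%) lay below and 4862 (31%) above, and the median change went from -3.45 to 0.04 points. This balance is fixed by ranking the same sites in every library and is no result. A change of the mean rank among all peaks beyond 50 points occurred at 948 shared sites downward (6.04%) and 516 upward (3.29%). No like count within groups is set beside these.

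**Figure D5:**
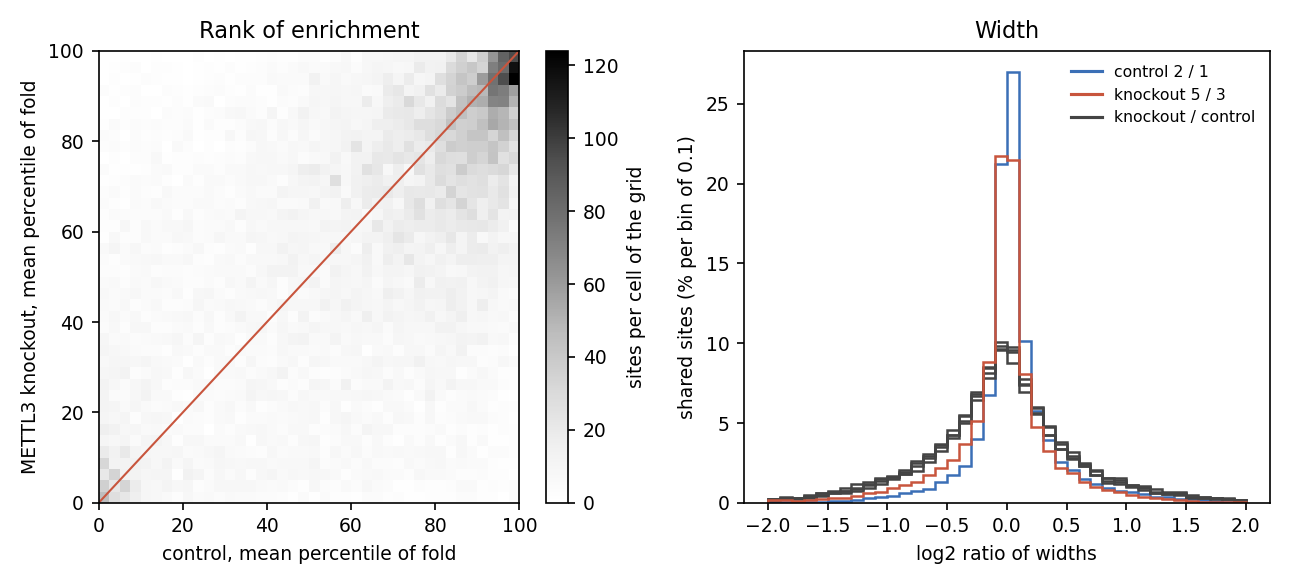
Left, mean percentile of fold enrichment at the 15690 shared sites in control (horizontal axis) and METTL3 knockout (vertical axis), with darker cells holding more sites and the line marking equal ranks. Right, distribution of log2 width ratios (percent of shared sites per bin), where the 4 curves of knockout over control are broader than those within control and within knockout (median absolute ratios 0.32 to 0.34, 0.11 and 0.13).

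By fold enrichment, the deepest falls took sites from the top of the control libraries to the bottom of the knockout libraries. At chr16:46731188-46732255 the fold enrichment was 20.7 and 14.0 in control (percentiles 99.5 and 97.6) and 1.58 and 2.09 in the knockout (percentiles 0.441 and 2.30). Its peak narrowed from 1067 and 1046 bp to 383 and 352 bp. At chr12:132413808-132414574 the percentiles were 97.7 and 99.1 in control and 2.82 and 0.0659 in the knockout, and the summit stayed within 7 bp of its place on average. The site at chr1:212502287-212502661 kept its summit to 3.5 bp and fell from percentiles 99.4 and 99.6 to 5.08 and 3.25. The remaining falls were at chr10:75542659-75543262, chr19:932003-932740 and chr1:161101410-161102709, with changes of -96.02, -95.1 and -94.6 points. Ranked by −log10 q, the falls of these 6 sites were smaller, with changes from -68.5 to -27.7 points. Their knockout peaks had a −log10 q from 2.85 to 20.4. The lowest of these stood close to the lowest values in the lists (1.89 to 1.91).

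The steepest rise was at chr17:44408718-44409354, with a fold enrichment of 2.36 and 2.45 in control (percentiles 5.55 and 8.05) and 40.4 and 39.96 in the knockout (99.7 and 99.7). Its −log10 q was 13.9 and 17.3 in control and 297 and 273 in the knockout, and its summits lay at 44409129 and 44409159 in control and 44409162 and 44409140 in the knockout. The summits of control and knockout overlapped at this site. That their fold ranks did not overlap was a condition of its choice. Next came chr2:112079108-112079700, chr19:58966518-58967282, chr6:52532083-52532616 and chr13:28136550-28137005, which rose by 91.3, 90.4, 89.97 and 89.6 points, and a site on chromosome 8 that rose by 89.96 points. In these 6 sites the control percentiles ran from 0.421 to 8.05 and the knockout percentiles from 87.3 to 99.7. Ranked by −log10 q, they rose by 30.1 to 73.1 points, with the least at chr17:44408718-44409354. Their control peaks had a −log10 q from 1.99 to 18.9. The lowest of these stood close to the lowest values in the lists (1.89 to 1.91).

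Rank and width moved together only in part. Of the 3848 sites whose ranks rose, 41.9% were wider in both knockout libraries and 27.2% narrower. Of the 5752 whose ranks fell, 23.9% were wider and 43.6% narrower. The Spearman correlation of rank change with log2 width change was 0.22 across the 15690 sites, and that of absolute rank change with absolute summit shift was 0.02. Both are descriptions of sites that share the same libraries. Changes were only weakly related between neighbours. For pairs of shared sites under 1 kb apart (1170 pairs) the Spearman correlation was 0.13 for rank change, 0.15 for width change and -0.01 for summit shift, and at 1 to 10 kb (3266 pairs) 0.05, 0.06 and 0.00.

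Some sites held the top of every library by fold enrichment in cells labelled as lacking the writer. The highest lowest rank was at chr2:169937882-169938398, at percentiles 99.7 and 99.8 in control and 99.7 and 99.7 in the knockout, with a fold of 23.2 and 26.6 in control and 39.0 and 40.3 in the knockout. Its −log10 q was 205 and 317 in control and 121 and 141 in the knockout. The next were chr11:72945800-72947140, chr20:62729540-62731953, chr7:150106796-150108331, chr18:60984523-60987343 and chr22:21742436-21743296, none of which fell under percentile 99.3 in any library. Their summits moved by at most 146 bp and their widths were 0.847 to 1.34 times those in control. The lowest percentiles of all these sites ran from 89.2 to 96.1 when −log10 q was ranked instead of fold. No gene is named for these or the other sites, because an annotation of hg19 was not used here.

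The METTL3 knockout differed less from the CFL1 knockout than from control in these measures, most clearly in summit position. CFL1 is cofilin 1, which severs actin filaments, and the series title names it as inducing m6A on super enhancer RNA. Its list lies on the same side as that of METTL3 in the folders recorded in peak names, apart from control. At the 11064 sites with 1 peak in each of the 6 libraries, summits lay a median of 20 to 26 bp apart between METTL3 and CFL1 knockout libraries, against 77 to 81 bp between METTL3 knockout and control. The distances within groups were 9, 11 and 15 bp for control, METTL3 knockout and CFL1 knockout. The absolute rank difference was 12.2 to 14.5 points between the knockouts and 16.2 to 17.1 between METTL3 knockout and control, and the absolute log2 width ratio was 0.19 to 0.24 and 0.29 to 0.31. In all 3 measures the 4 pairs of libraries of the 2 knockouts lay below the 4 pairs of METTL3 knockout and control, and above the pairs within groups. CFL1 knockout and control differed by 78 to 89.5 bp, 17.9 to 19.6 points and 0.33 to 0.39 in the same order; that comparison shares the control libraries with the one for METTL3. What is particular to the METTL3 knockout, what both knockouts share and any difference in handling between control and knockouts cannot be told apart here.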

How the data were processed

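Reads of antibody and input libraries were aligned with STAR to hg19 and peaks were called with MACS2, and bedtools was used, per the submitters' processing notes; no source used here gives their versions or settings. The fold enrichment (a ratio), −log10 q, interval and summit of each peak are the authors' deposited values. No library held an interval more than once. Here peaks were read by library from their names, joined into sites where they overlapped by at least 1 bp, and compared with Python 3.11.15, numpy 2.4.6, pandas 2.3.3 and scipy 1.17.1. Shared sites have exactly 1 peak in each of 4 libraries. Ranks are percentiles of fold within a library. Scripts were tested on simulated peaks. Exact two-sided permutation of 2 against 2 libraries tested the shares of peaks found and the summit, width and rank changes at shared sites. The remaining comparisons, among them those by decile, quintile, distance, neighbour, chromosome and with CFL1, had no test. Depth is unknown, and the precision is limited by 2 libraries per group.

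Named sites had exactly 1 peak per library: the 6 largest falls and 6 largest rises of mean rank, the 5 largest widenings and 5 largest narrowings, each with groups that did not overlap, the 5 longest summit shifts where summits within each group lay within 20 bp, and the 6 sites with the highest lowest rank. The sites, rules and tests were chosen with earlier results of these data known, and the neighbour, gap, chromosome and CFL1 comparisons were added after seeing the lists. Alternatives were overlap of 50% of the shorter peak, −log10 q of at least 10, fold of at least 4, chromosome X, sites with several peaks, the upper 50% of ranks, other rankings, and each library left out. A further setting, every line kept as deposited, was the same as the main one. Nuclear fractions, samples with and without an added drug, genes and sequence motifs were not analysed here.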

Additional observations from a re-analysis of the deposited data

Results flagged for a closer look

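Chromosomes outside the comparison held more peaks in both METTL3 knockout libraries than in both control libraries, although the knockout libraries held fewer peaks in all. On chromosome X there were 2396 and 2481 peaks in knockout 3 and 5, against 2198 and 2272 in control 1 and 2. On chromosome Y there were 215 and 219 against 97 and 86. Mitochondrial RNA gave 11 and 10 peaks against 7 and 5, which are small numbers. CFL1 knockout 3 and 5 held 2339 and 2302 peaks on chromosome X and 271 and 268 on chromosome Y. Their mitochondrial peaks numbered 0 and 1, fewer than in control.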

How the results depend on the processing

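Of 125 values recomputed for the comparisons, 122 kept their direction and, for shares of sites, stayed within 1.5 times. A setting that kept every line as deposited could not change any value, because no library held an interval more than once. Its values are nevertheless counted here, and among the values of the named sites below. The median signed rank change turned from -3.45 to 0.0382 points with ranks within shared sites, which centres the change at 0 by construction. The width change turned without control 2: leaving out each library it ran from -0.0658 to 0.00500 (log2), and its cause was not tested, since the sites compared changed too. Leaving out each library, shared sites with ranks above control ran from 31.2% to 37.3%, where fewer libraries have to separate. Over the other settings, control peaks kept ranged from 35.6% to 54.2% (highest where −log10 q had to reach 10), and the summit shift from 81.25 to 107 bp (highest with several peaks per site). The rank change was 10.9 points with −log10 q ranked and 11.5 in the upper 50% of ranks. No exact permutation could pass a threshold of 5%, so its p says nothing about stability. Of 341 values of the 33 named sites, none turned in direction and 55 moved by more than 1 SD between libraries. Many of these values could not turn: widths and summits stay the same under most settings, and the percentiles of the strongest kept sites have no sign. A site that dropped out under a setting gave no value there. With fold of at least 4, no named fall, rise or widening was left. The count is therefore no measure of how stable the named sites are. No paired analysis was possible because library names and labels number the knockouts differently. Read depth is unknown, so a peak missing from a library may lie just under its threshold.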

Other observations

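By the share found in the other group, peaks that stood alone behaved in opposite ways in the 2 groups. Control libraries held 704 and 612 peaks with no other peak of the same library within 100 kb, and 55.1% of them (mean of 4 pairs, 53.1% to 56.7%) had a METTL3 knockout peak, more than the 39.3% of control peaks with a neighbour under 1 kb away. METTL3 knockout libraries held 1554 and 1594 such lone peaks, and only 13.5% (12.9% to 14.2%) had a control peak, against 53.7% of knockout peaks with a neighbour under 1 kb away. The lone knockout peaks were found again in the other knockout library in 47.4% of cases, and the lone control peaks in the other control library in 66.0%. For peaks with a neighbour under 1 kb away these shares were 78.7% and 78.2%. Within both groups, lone peaks were thus found again less often.

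The lone knockout peaks were narrow, with a mean of the 2 library medians of 228.25 bp, against 298.75 bp for the lone control peaks and 418 bp for knockout peaks with a neighbour under 1 kb away. Their fold enrichment was near the middle of their libraries, at a mean median percentile of 47.1. Whether they lie outside annotated genes was not examined.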
